A study of Mus musculus with 9 samples.

Results

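Binding of the homeodomain proteins TGIF1 and MEIS1 was examined at 2 genes that cooperate with other lesions in mouse myeloid leukaemia, Trib2 and Sox4. A member was any peak of the 8 deposited peak lists that overlapped the mm9 interval of Trib2, on chromosome 12 from 15.65 to 15.95 Mb (300 kb), or that of Sox4, on chromosome 13 from 28.85 to 29.25 Mb (400 kb). The rule used positions alone. It took 65 of the 182249 peaks of the series (0.0357%), 27 at Trib2 and 38 at Sox4. Overlapping peaks of the 8 lists were merged into sites, 9 at Trib2 and 13 at Sox4, of 60709 in the whole series.

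All cells were bone marrow cells of C57BL/6 mice, selected for the receptor c-kit, transformed with the fusion oncogene MLL-AF9 and further transduced with pMIG-TGIF1-ER, a vector for TGIF1 joined to the estrogen receptor, so that the control cells carry both the oncogene and the construct. One pair of groups received the ligand 4-hydroxytamoxifen (4-OHT) for 20 h and the other ethanol (EtOH), and chromatin immunoprecipitation sequencing with a TGIF antibody or a Meis antibody gave 4 groups of 2 libraries. Whether the TGIF antibody binds the cells' own TGIF1, the fusion or both is not in the labels. Cells treated with 4-OHT but lacking the construct were not among the samples, so an effect of 4-OHT cannot be told apart from one of the fusion. The labels number the libraries of a group without naming a culture or animal, so the spread between them, and any p-value resting on it, may be technical. Peak positions hold no expression, so the cell type and the activity of either gene were not checked.

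Trib2 encodes a Tribbles pseudokinase. It acts as a scaffold that brings the ubiquitin ligase COP1 to the myeloid differentiation factor C/EBPα, which is then degraded. Sox4 encodes a transcription factor of the SRY-related HMG-box family that is kept low by C/EBPα in normal myeloid cells and is a frequent retroviral insertion site in mouse myeloid leukaemia. MEIS1 is a HOX cofactor that sustains MLL-fusion leukaemia, and TGIF1 is a transcriptional repressor. Both belong to the TALE homeodomain class and read closely related DNA letters around the core TGACA, extended to TGACAG in many MEIS sites.

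The promoters of both genes are shown because this shared core can be read in one of them. Each sequence is the 250 bases before the gene's start in RefSeq (GRCm38.p6), on the minus strand, which is the strand of both genes, and both genes were found in the table. Capitals mark TGACA or TGACAG, and both motifs were searched on both strands.
Trib2 promoter: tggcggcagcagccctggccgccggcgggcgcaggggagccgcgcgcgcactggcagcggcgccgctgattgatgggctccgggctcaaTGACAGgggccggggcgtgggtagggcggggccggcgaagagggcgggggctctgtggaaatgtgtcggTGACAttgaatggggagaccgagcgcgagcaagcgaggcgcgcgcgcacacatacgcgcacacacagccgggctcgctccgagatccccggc
Sox4 promoter: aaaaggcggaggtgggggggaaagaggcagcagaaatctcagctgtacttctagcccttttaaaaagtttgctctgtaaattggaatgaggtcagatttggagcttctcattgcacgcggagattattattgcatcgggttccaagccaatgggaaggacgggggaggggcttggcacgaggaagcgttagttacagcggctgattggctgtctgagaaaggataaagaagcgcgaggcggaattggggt
The Trib2 sequence held TGACAG once, starting at base 90, and a second TGACA at base 159, counted from the first printed base. The Sox4 sequence held neither motif. TGACA, which includes TGACAG, was found in 40.0% of all 32851 promoters of this length in the table, and TGACAG in 15.9%. The sequences also differed in base composition, with 73.6% G and C at Trib2 and 50.8% at Sox4. A match is a description of letters and not a binding site. The peaks are in mm9, and gene positions in mm9 were not used here, so whether a peak covers either promoter, an exon or an intron was not measured.

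The lists differed in length, which bears on every count that follows. The TGIF1 EtOH lists held 2764 and 592 peaks, the TGIF1 4-OHT lists 12141 and 26932, the MEIS1 EtOH lists 26254 and 43564, and the MEIS1 4-OHT lists 21173 and 48829, each given as replicate 1 and then replicate 2. They give positions, lengths and summits without a height or score, so the depth of the libraries is unknown and a missing peak does not show that a protein was absent. To show how common a count is, the genome was divided into windows of the size of each interval, 8773 for Trib2 and 6578 for Sox4, and the same list was counted in each.

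TGIF1 had no peak at either locus in EtOH-treated cells and a few after induction. At Trib2, TGIF1 peaks numbered 0 and 0 with EtOH and 2 and 1 with 4-OHT (replicates 1 and 2). At Sox4 the numbers were 0 and 0 with EtOH and 1 and 2 with 4-OHT. The groups did not overlap at either gene. The share of all windows in which they do not overlap was not measured, so this was not read as particular to these genes. The means were 0 ± 0 and 1.5 ± 0.707 peaks (SD, n = 2) at both genes, a difference of 1.5 peaks. A two-sided exact permutation test of 2 libraries against 2 cannot go below p = 0.33, and it gave p = 0.33 for each gene. An empty interval was common in the short EtOH lists: neither held a peak in 79.4% of windows of the Trib2 size and in 74.9% of those of the Sox4 size. The difference was 0 at both genes when each TGIF1 list was reduced to its 592 longest peaks, and also 0 at Trib2 with the longest 50% of each list. These settings say little about list length. The EtOH list of 592 peaks had a peak in only 5.65% of windows of the Trib2 size and 7.36% of those of the Sox4 size. All TGIF1 peaks at Trib2 were shorter than the median peak of their list, so the longest 50% could not hold them.

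Peak numbers of TGIF1 at these genes did not follow list length in the same way. At Trib2 the shorter induced list had 2 peaks against a mean of 1.38 per window, and the longer one had 1 against 3.07. At Sox4 both were below the mean window, with 1 peak against 1.84 and 2 against 4.09. The median window held 0 peaks of replicate 1 and 1 peak of replicate 2 at either size. Each locus had 1 reproducible TGIF1 4-OHT region, meaning a merged region with a peak from both libraries. At least 1 such region was present in 41.7% of windows of the Trib2 size and 47.3% of those of the Sox4 size, so its presence was common over the genome.

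**Figure D1:**
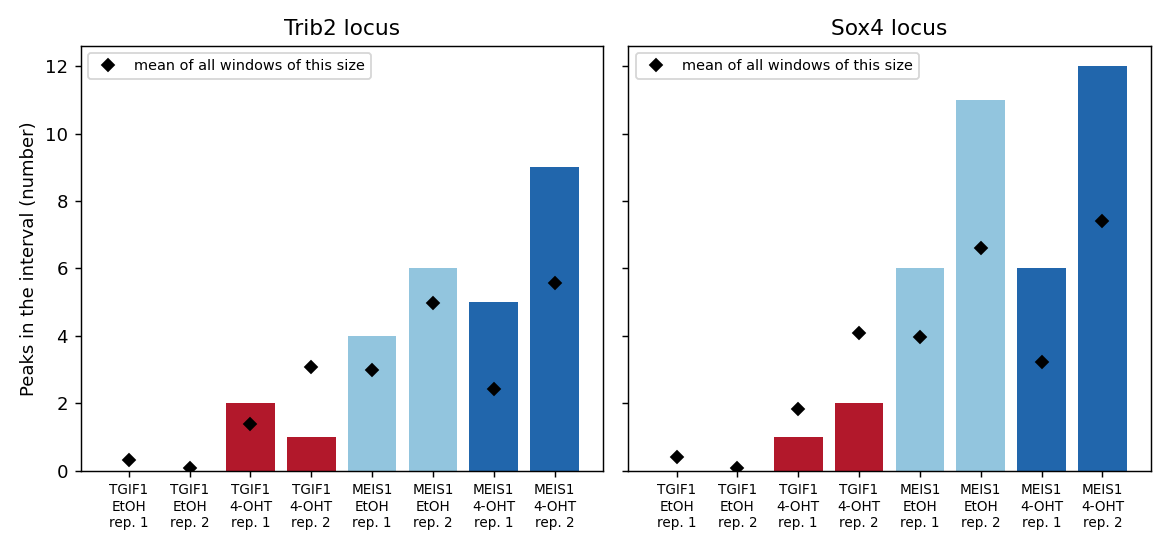
Bars give the number of peaks of each of the 8 lists in the Trib2 interval (left) and the Sox4 interval (right), and diamonds the mean number of the same list over all genome windows of that size. All MEIS1 bars stand above their diamonds, by 1.21 to 2.07 times, whereas the TGIF1 4-OHT bars stand above it only for replicate 1 at Trib2.

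MEIS1 peaks were more numerous than the mean window at both genes in all 4 lists. As raw numbers they overlapped between treatments at both genes, and scaled to list length they overlapped at Sox4 but not at Trib2. At Trib2, MEIS1 peaks numbered 4 and 6 with EtOH and 5 and 9 with 4-OHT. The means were 5.0 ± 1.41 and 7.0 ± 2.83 peaks (SD, n = 2), and the difference of 2.0 was smaller than the SD under 4-OHT (exact permutation test, two-sided, p = 0.667). Without MEIS1 4-OHT replicate 2 it was 0, and without 4-OHT replicate 1 it was 4.0. Per 10000 peaks of the list the Trib2 numbers were 1.52 and 1.38 with EtOH and 2.36 and 1.84 with 4-OHT, so both 4-OHT lists were above both EtOH lists, by 0.652 on average. The treatments also did not overlap with the interval widened by 100 kb (a difference of 3.5 peaks). Nor did they with the longest 50% of each list (2.0 peaks). Each of these 3 settings gave p = 0.33 in the two-sided exact permutation test, the smallest possible. The share of all windows in which the treatments separate in these ways was not measured. The separation was therefore not read as particular to Trib2. With each list reduced to its 21173 longest peaks, the difference at Trib2 was 0.5 (two-sided exact permutation test, p = 1.0). At Sox4 the numbers were 6 and 11 with EtOH and 6 and 12 with 4-OHT. Per 10000 peaks of the list they were 2.29 and 2.53 with EtOH and 2.83 and 2.46 with 4-OHT, which overlapped. The means were 8.5 ± 3.54 and 9.0 ± 4.24 peaks (SD, n = 2), and the difference was 0.5 (exact permutation test, two-sided, p = 1.0). That small difference depended on single libraries: leaving out the first EtOH library turned it to -2.0, and leaving out the second made it 3.0. Leaving out the second 4-OHT library turned it to -2.5, and leaving out the first made it 3.5. In both treatments and at both genes the replicate with the longer list had the higher number.

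Set against the genome, the MEIS1 lists held 1.21 to 2.07 times the mean window at Trib2 and 1.51 to 1.87 times at Sox4. The count at Trib2 was reached by 20.8 to 33.3% of windows over the 4 MEIS1 lists, and that at Sox4 by 23.4 to 28.5%. At Trib2 there were 4 reproducible MEIS1 regions with EtOH and 5 with 4-OHT, and at Sox4 there were 6 and 6. As many or more were found in 28.4% and 19.3% of windows of the Trib2 size, and in 25.3% and 21.8% of those of the Sox4 size. Counts like these were therefore common over the genome.

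**Figure D2:**
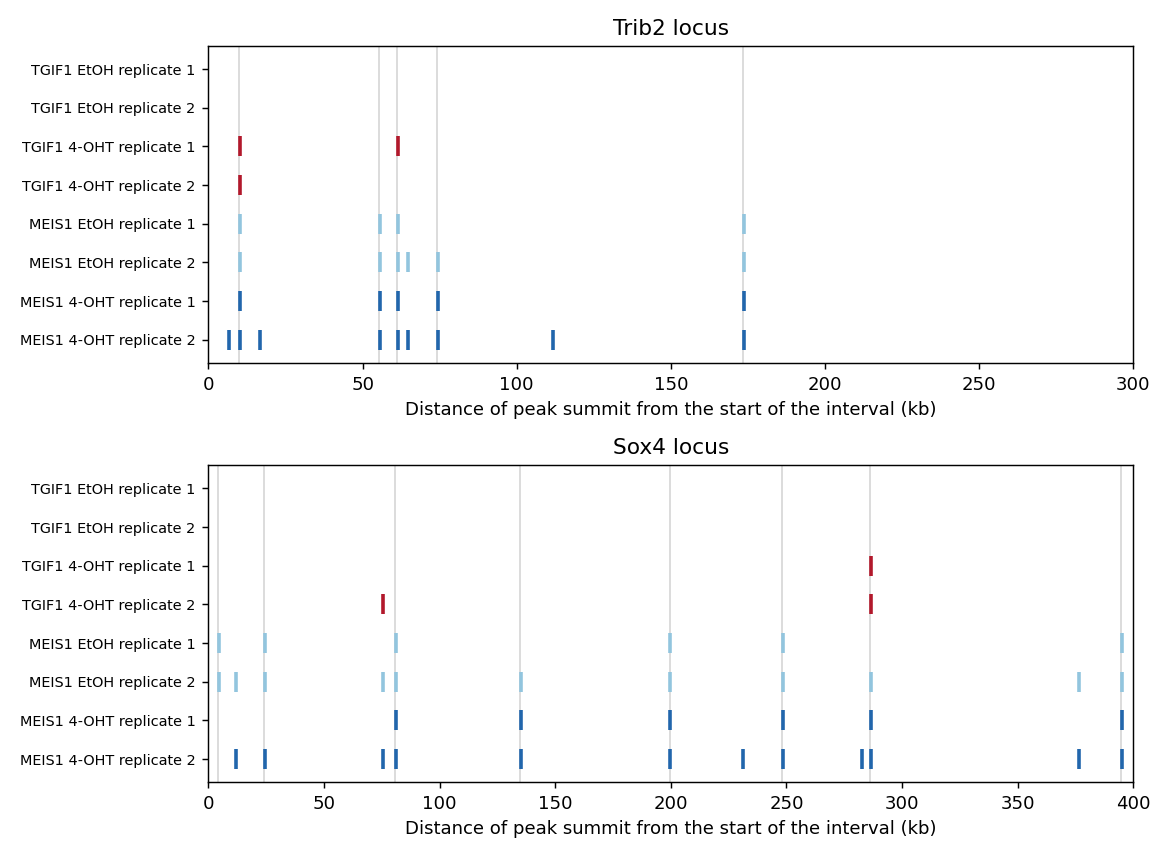
Each mark is the summit of 1 peak, placed by its distance in kb from the start of the Trib2 interval (top, 300 kb) or the Sox4 interval (bottom, 400 kb), with 1 row per list. Grey lines mark the 5 and 8 sites with a peak in both libraries of at least 1 group; peaks at Trib2 lie in the first 174.2 kb, and those at Sox4 run over the whole interval.

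The sites were arranged differently at the 2 genes. At Trib2, 8 of the 9 sites lay in the first 112.1 kb of the interval, the last followed after a gap of 61.4 kb, and the 125.8 kb beyond it held no peak of any list. At Sox4 the 13 sites ran from 4.3 kb after the start of the interval to 4.4 kb before its end, with the longest gap 89.3 kb. Peaks in both libraries of at least 1 group were present at 5 of the 9 Trib2 sites and at 8 of the 13 Sox4 sites. The share of such sites over the whole series was not measured. All 4 MEIS1 lists had a peak at 4 sites of each gene, with 1 peak per list. In the whole series 14338 of the 60709 sites had 1 peak in each MEIS1 list.

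The fullest site was at Trib2, 10.0 kb into the interval, on chromosome 12 from 15660048 to 15660649. It carried peaks in both TGIF1 4-OHT and all 4 MEIS1 lists, and none in the TGIF1 EtOH lists. The TGIF1 peaks were 328 bp (replicate 1) and 562 bp (replicate 2) long, the MEIS1 EtOH peaks 513 and 594 bp, and the MEIS1 4-OHT peaks 562 and 591 bp. The 6 summits lay within 26 bp: 15660298 and 15660315 for TGIF1, 15660289 and 15660294 for MEIS1 under EtOH, and 15660300 and 15660292 for MEIS1 under 4-OHT. The TGIF1 replicates differed by 17 bp, as much as TGIF1 replicate 2 differed from the nearest MEIS1 summit (15 bp), while TGIF1 replicate 1 was 2 to 9 bp from the MEIS1 summits.

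A second Trib2 site with TGIF1 lay 61.1 kb into the interval, on chromosome 12 from 15711108 to 15711791. All 4 MEIS1 lists had a peak there, and TGIF1 was called in 4-OHT replicate 1 alone, with a peak of 368 bp. That replicate has the shorter of the induced lists, and 3.52% of its 12141 peaks lacked a partner in replicate 2. The TGIF1 summit was 33 to 79 bp from those of MEIS1. The MEIS1 peaks there were 286 bp (EtOH replicate 1), 684 bp (EtOH replicate 2), 575 bp (4-OHT replicate 1) and 537 bp (4-OHT replicate 2) long, so the treatments differed in opposite directions in the 2 replicates.

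At Sox4 the site with most lists lay 286.2 kb into the interval, on chromosome 13 from 29136225 to 29136932. It held both TGIF1 4-OHT peaks, both MEIS1 4-OHT peaks and the peak of MEIS1 EtOH replicate 2, but none of MEIS1 EtOH replicate 1. The TGIF1 peaks were 465 and 580 bp long, the MEIS1 4-OHT peaks 505 and 701 bp, and the MEIS1 EtOH peak 677 bp. Summits of TGIF1 replicate 2 and of the 3 MEIS1 peaks fell on the same base, 29136625, and that of TGIF1 replicate 1 at 29136622, a span of 3 bp. The span was 26 and 79 bp at the TGIF1 sites of Trib2, with 6 and 5 summits. It was 24 bp at the other Sox4 site with TGIF1, at 75.1 kb, with 3 summits. A span tends to grow with the number of summits, and how common a span of 3 bp is over the series was not measured.

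TGIF1 4-OHT replicate 2 also had a Sox4 peak of 380 bp at 75.1 kb, on chromosome 13 from 28925054 to 28925954. MEIS1 was called there in replicate 2 of both treatments and in neither replicate 1, so the site appears in the longer list of each induced or MEIS1 group and in no shorter one. The TGIF1 summit was 24 bp from the MEIS1 EtOH and 8 bp from the MEIS1 4-OHT summit. Of the peaks of TGIF1 4-OHT replicate 2 in the whole series, 58.6% had no replicate 1 peak.

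**Figure D3:**
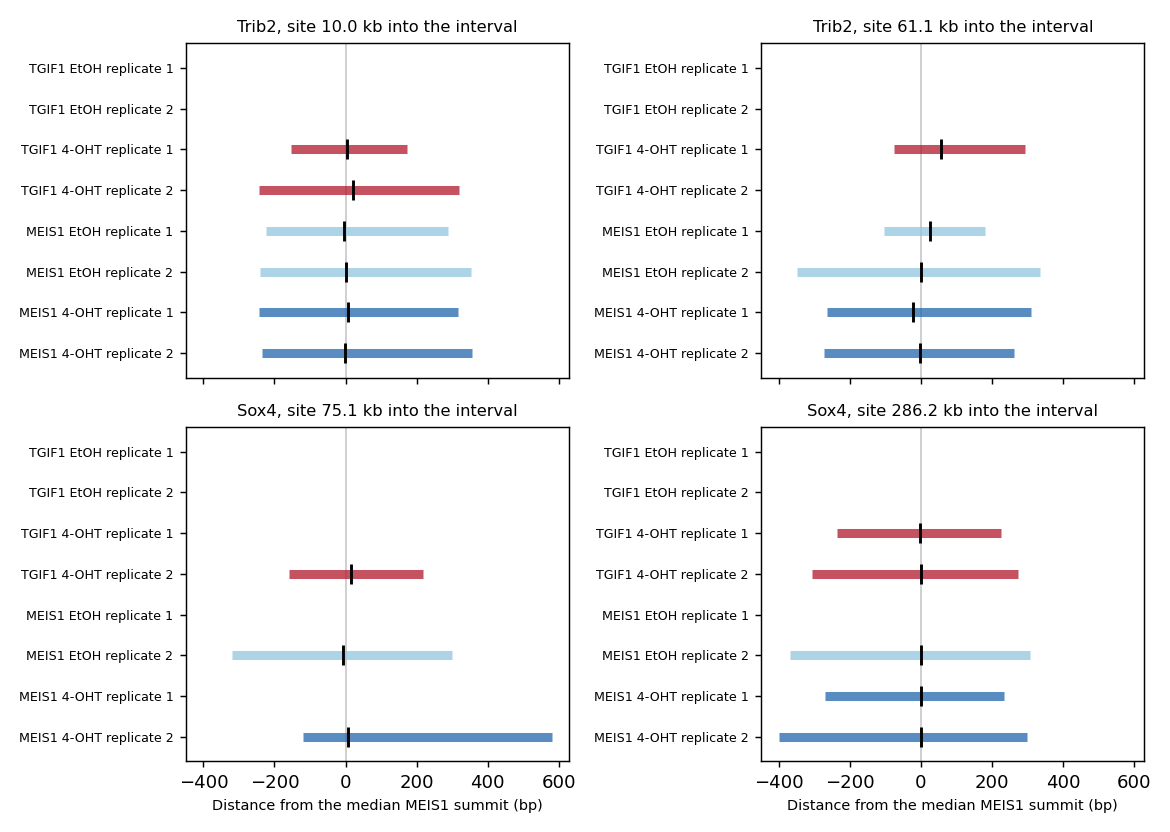
Bars show the extent of each peak and black ticks its summit at the 4 sites with TGIF1, in bp from the median MEIS1 summit of that site, with 1 row per list. At the Sox4 site 286.2 kb into the interval all 5 summits fall within 3 bp, and at the Trib2 site 61.1 kb into the interval they spread over 79 bp.

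All 6 TGIF1 peaks of the 2 loci overlapped a MEIS1 peak of at least 1 list. This was also the usual case elsewhere, at 86.7% of all peaks of TGIF1 4-OHT replicate 1 and 78.7% of those of replicate 2. Over the overlapping pairs of a TGIF1 4-OHT and a MEIS1 peak, the median distance between summits was 22.0 bp at Trib2 (12 pairs) and 3.0 bp at Sox4 (8 pairs). By TGIF1 library the medians were 21.0 and 22.0 bp at Trib2 and 3.0 and 0 bp at Sox4. At each gene most pairs came from 1 site, so the median mainly describes that site. At Trib2 the distances were 2 to 26 bp at the site at 10.0 kb and 33 to 79 bp at 61.1 kb. At Sox4 they were 0 or 3 bp at the site at 286.2 kb and 8 and 24 bp at 75.1 kb. Over the whole series the medians were 28.0 to 31.0 bp for the 8 pairs of lists. The pairs of a locus come from 2 sites each and share their peaks, so no test was made of this difference. It rested on the point compared: with peak centres in place of summits the medians were 35.0 bp at Trib2 and 30.3 bp at Sox4.

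Most reproducible MEIS1 regions at both genes had no reproducible TGIF1 region. At Trib2, 1 of 4 MEIS1 EtOH regions and 1 of 5 MEIS1 4-OHT regions overlapped one, in each case the site at 10.0 kb. At Sox4 it was 0 of 6 and 1 of 6, the latter being the site at 286.2 kb, whose MEIS1 peak under EtOH was called in 1 library and so did not count as reproducible. In the whole series these shares were 29.8% of MEIS1 EtOH regions and 28.8% of MEIS1 4-OHT regions, and with so few regions no difference from them was read. Without MEIS1 EtOH replicate 1 the Sox4 count became 1 of 11, and without TGIF1 4-OHT replicate 2 the Trib2 counts became 2 of 4 and 2 of 5.

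Read from TGIF1, the reproducible region at Trib2 met reproducible MEIS1 regions of both treatments. That at Sox4 met one under 4-OHT only, since its MEIS1 EtOH peak came from 1 library. Among all reproducible TGIF1 4-OHT regions, 60.9% overlapped a reproducible MEIS1 EtOH region and 51.0% a reproducible MEIS1 4-OHT region.

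One reproducible MEIS1 region, at Sox4, was present under EtOH and in neither 4-OHT list. It lay 4.3 kb into the interval, on chromosome 13 from 28854308 to 28854822, with peaks of 335 bp (replicate 1) and 515 bp (replicate 2) whose summits were 8 bp apart. No TGIF1 peak was called there. It was 1 of 6 MEIS1 EtOH regions at Sox4, beside 0 of 4 at Trib2, and 2.91% of those of the whole series. The number was 2 of 6 without MEIS1 4-OHT replicate 2, whose peak was the single 4-OHT peak at the site 23.9 kb into the interval, on chromosome 13 from 28873932 to 28874576, where the EtOH peaks were 378 and 593 bp and the 4-OHT peak 587 bp long. It was 0 of 1 with the longest 50% of each list.

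No region was reproducible under 4-OHT and empty under EtOH at either gene, 0 of 5 at Trib2 and 0 of 6 at Sox4, against 3.22% in the whole series. The nearest to it were sites with peaks in both 4-OHT lists and in EtOH replicate 2 alone. Besides the Sox4 site at 286.2 kb, these were a Trib2 site 74.1 kb into the interval, on chromosome 12 from 15724105 to 15725187, and a Sox4 site 134.8 kb into the interval, on chromosome 13 from 28984774 to 28985207. The Trib2 one, with peaks of 1083 bp (EtOH replicate 2), 510 bp (4-OHT replicate 1) and 1034 bp (4-OHT replicate 2), was the longest site of its locus. The Sox4 one had peaks of 434, 313 and 397 bp in the same order.

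MEIS1 was called in all 4 lists, with no TGIF1 peak, at 2 Trib2 sites. They lay 55.2 kb and 173.5 kb into the interval, on chromosome 12 from 15705166 to 15705821 and from 15823476 to 15824160. Their summits spanned 13 and 29 bp over the 4 lists. The second of these is the isolated site beyond the gap of 61.4 kb. Its peaks were 487 and 606 bp under EtOH and 669 and 635 bp under 4-OHT.

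At Sox4 all 4 sites with peaks in every MEIS1 list lacked TGIF1. The share of such sites that lack TGIF1 over the whole series was not measured. The absence was therefore not read as particular to Sox4 or to the Trib2 sites above. They lay on chromosome 13 at 80.7 kb (28930690 to 28931852), 199.5 kb (29049526 to 29050185), 248.1 kb (29098119 to 29098694) and 394.9 kb (29244942 to 29245603) into the interval. The first held the longest peak of either locus, 1151 bp in MEIS1 EtOH replicate 2, against 470 bp in EtOH replicate 1, 588 bp in 4-OHT replicate 1 and 647 bp in 4-OHT replicate 2. At the site at 394.9 kb the shortest MEIS1 peak of either locus was found, 187 bp in EtOH replicate 1, beside 662, 349 and 590 bp in the other lists. The summits spanned 49, 44, 105 and 16 bp at the 4 sites in this order. At the sites at 199.5 kb and 248.1 kb the summits of replicate 1 stood apart from those of replicate 2 across treatments. At 248.1 kb they were at 29098427 and 29098445 in replicate 1 and at 29098340 and 29098344 in replicate 2. At 199.5 kb they were at 29049793 and 29049797 in replicate 1 and at 29049834 and 29049837 in replicate 2. At 80.7 kb they did not separate clearly, with 28931022 (EtOH) and 28931060 (4-OHT) in replicate 1 and 28931014 and 28931011 in replicate 2. There the summits of replicate 1 were farther from each other than the EtOH one was from those of replicate 2. At 394.9 kb, with 29245287 and 29245271 in replicate 1 and 29245282 and 29245278 in replicate 2, they interleaved. They also interleaved at the Trib2 sites with all 4 MEIS1 peaks. Over the whole series the median summit distance of MEIS1 replicates was 17.0 bp (EtOH) and 14.0 bp (4-OHT). Between treatments it was 16.0 bp in replicate 1 and 13.0 bp in replicate 2.

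Peak length is not a height, but it was the one graded value that the files gave. The lists differed in it as a whole, with median lengths of 362 bp (EtOH) and 442 bp (4-OHT) in replicate 1 and 633 and 571 bp in replicate 2. At the 8 sites with all 4 MEIS1 peaks, the peak was longer under 4-OHT at 7 in replicate 1 and at 2 in replicate 2. The same split ran through the 14338 sites of the series with 1 peak in each MEIS1 list, of which 74.2% were longer under 4-OHT in replicate 1 and 26.2% in replicate 2. The length differences at the 2 genes therefore followed those of the lists.

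The MEIS1 peak was longer under 4-OHT in both replicate numbers at 1 site per gene, beside 19.8% of those sites of the series. At Trib2 this was the isolated site at 173.5 kb. At Sox4 it was the one at 248.1 kb, with 327 and 532 bp under EtOH and 451 and 544 bp under 4-OHT. The peak was shorter in both at 1 Trib2 site and at 0 Sox4 sites, beside 19.1% in the series. That Trib2 site lay at 55.2 kb, with 334 bp under EtOH and 333 bp under 4-OHT in replicate 1, which is no more than 1 bp, and 656 and 572 bp in replicate 2. The site of both TGIF1 libraries at Trib2 had no shared direction, with 513 and 562 bp in replicate 1 and 594 and 591 bp in replicate 2. Lengths were also ranked as percentiles within each list. The rank was higher under 4-OHT in both numbers at 1 site per gene, again those at 173.5 kb and 248.1 kb. It was lower in both at 1 site per gene, at 55.2 kb (Trib2) and 199.5 kb (Sox4). At 55.2 kb it went from the 39.1 to the 13.7 percentile in replicate 1. The share of series sites with such shifts in rank was not measured.

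**Figure D4:**
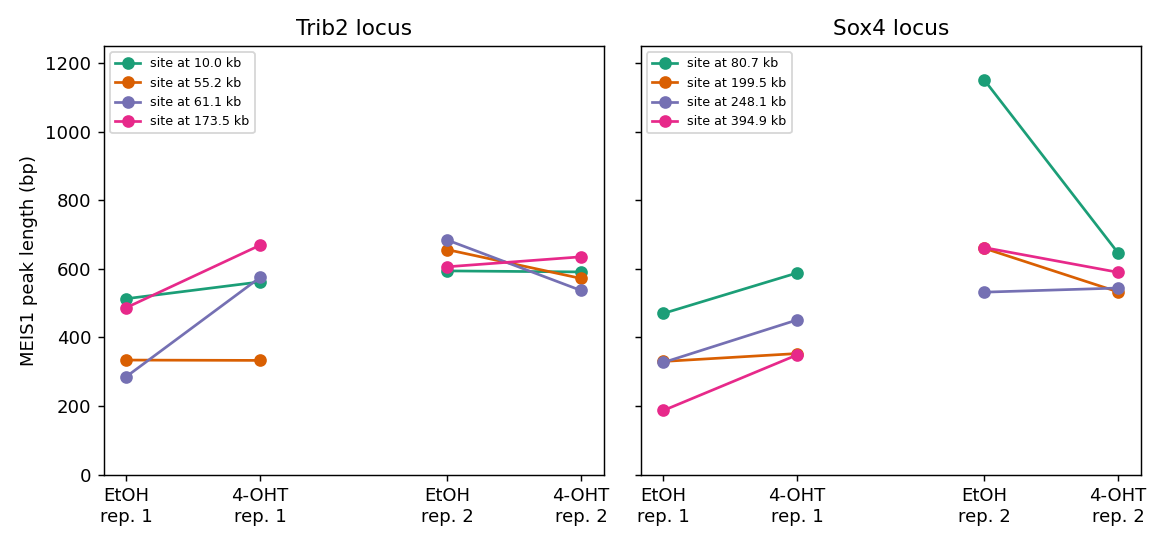
Points give the length in bp of the MEIS1 peak at the 4 sites per gene with a peak in all 4 MEIS1 lists, and lines join EtOH and 4-OHT of the same replicate number. Lines go up at 7 of the 8 sites in replicate 1 and at 2 of the 8 in replicate 2, the same split as over the lists as a whole.

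TGIF1 peaks at these genes were of middle or short length in their lists, by the percentile of their length among all peaks of the list. At Trib2 all 3 were shorter than the median peak of their list, at the 13.3 and 24.4 percentile of replicate 1 and the 49.0 percentile of replicate 2. At Sox4 the peaks of the site at 286.2 kb were at the 59.1 percentile of replicate 1 and the 52.4 percentile of replicate 2, and the one at 75.1 kb at the 6.59 percentile of replicate 2.

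The remaining 9 sites, 4 at Trib2 and 5 at Sox4, had no group with a peak in both libraries. At Trib2, 3 of the 4 were peaks of MEIS1 4-OHT replicate 2 alone, the longest list of the series, with lengths of 519, 320 and 374 bp. The other one carried MEIS1 peaks of replicate 2 under both treatments, 588 and 610 bp long. At Sox4, 2 of the 5 were in MEIS1 4-OHT replicate 2 alone, with peaks of 492 and 486 bp. The other 3 had MEIS1 peaks in replicate 2 of both treatments, with lengths of 299 to 700 bp, and 1 of them carried the TGIF1 peak at 75.1 kb. No such site had a peak in any MEIS1 replicate 1 list.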

How the data were processed

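Peak lists of 8 libraries were analysed, and the IgG sample was not analysed here. Per the submitters' processing notes, reads were aligned with Bowtie 0.12.7 to mm9. Per the file headers, 1 list (the second of MEIS1 with 4-OHT) came from MACS 1.4.2. For the other 7, no caller is given in the sources used here, nor for any list a threshold or a control. Each deposited list gives start, end, length and summit offset in bp, per the file headers, and summits were placed at start plus offset minus 1. The members and lists were chosen with earlier results of these data known.

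Peaks overlapping by at least 1 bp were merged. Peak numbers were compared between treatments with a two-sided exact permutation test over libraries. Windows were tiled from the first base of each chromosome to the last peak, leaving out the incomplete last one, and empty windows were kept. Sites with both libraries of at least 1 group, up to 12 per locus, were to be named with coordinates. Sites outside that rule (the TGIF1 site at 75.1 kb) were named after their values were seen. Loss of MEIS1 regions, overlap of MEIS1 4-OHT regions and peak lengths were also added after seeing the data.

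Python 3.11.15, numpy 2.4.6, pandas 2.3.3 and scipy 1.17.1 were used. Overlap counts were checked against bedtools 2.31.1 and were equal in 56 of 56 pairs of lists.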

Additional observations from a re-analysis of the deposited data

How the results depend on the processing

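The 4 differences in peak number (4-OHT minus EtOH) kept their direction in 29 of 36 alternatives, but some of these could not change it. The replicate number as a block leaves each mean difference as it is. Both TGIF1 EtOH lists held 0 peaks at both genes, and both TGIF1 4-OHT lists held some. Scaling to list length or leaving out 1 TGIF1 library therefore could not change the sign. The 29 are thus a count and not a measure of robustness. With 2 libraries a group no exact p can go below 0.33. With lists of equal length (592 TGIF1 peaks) no TGIF1 peak was left at either gene and the difference was 0. A list that short leaves most windows empty, so this setting cannot show whether list length made the difference. With the longest 50% of each list none was left at Trib2 (a difference of 0), and at Sox4 the difference was 1.0. The MEIS1 difference at Trib2 was 0.5 with lists of equal length. Without single libraries the MEIS1 difference ran from 0 to 4.0 at Trib2 and from -2.5 to 3.5 at Sox4, where it was -0.5 with the interval widened by 100 kb.

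The count of reproducible MEIS1 EtOH regions with TGIF1 became 0 of 0 at Trib2 with the longest 50% of each list, and 2 of 6 at Trib2 and 2 of 11 at Sox4 with the union of replicates. Without single libraries it ran from 1 to 2 at Trib2 and from 0 to 1 at Sox4. For MEIS1 4-OHT regions, added after seeing the data, the Trib2 count was 0 of 3 with the longest 50% and 1 to 2 without single libraries, and no alternative moved the Sox4 count. The Sox4 count of MEIS1 EtOH regions without a 4-OHT peak, also added then, was 0 with the longest 50% and 1 to 2 without single libraries. With peak centres in place of summits, the median distance of TGIF1 and MEIS1 was 35.0 bp at Trib2 and 30.3 bp at Sox4, and without single libraries the summit medians ran from 21.0 to 23.0 bp and from 0 to 3.0 bp. At Trib2 the longest 50% of each list left no TGIF1 peak and so no distance.

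Replicate numbers are shared between groups, and nothing in the labels says that they pair the libraries. With the replicate number as a block the differences were 1.5 (TGIF1 at both genes), 2.0 (MEIS1 at Trib2) and 0.5 (MEIS1 at Sox4), as without it, since averaging within numbers leaves the mean difference as it is; the smallest exact p of that test is 0.5.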

Other observations

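Just outside the intervals, more MEIS1 sites were found around Sox4 than around Trib2. In the 100 kb on either side of the Sox4 interval 7 sites were found, and 4 of them had a peak in all 4 MEIS1 lists. Of these, 1 lay 73.4 kb before the interval, on chromosome 13 from 28776101 to 28776554. The other 3 lay after it, from 29261090 to 29261683 (11.1 kb beyond), from 29285365 to 29286010 (35.4 kb beyond) and from 29324375 to 29325104 (74.4 kb beyond). Around the Trib2 interval 3 sites were found. The one 29.1 kb before it, on chromosome 12 from 15620395 to 15620912, had peaks in both MEIS1 4-OHT lists and in neither EtOH list. Such regions were 3.22% of the reproducible MEIS1 4-OHT regions of the whole series. The other 2 had peaks in 1 and 2 MEIS1 lists. None of these 10 flanking sites had a TGIF1 peak in any list, so the 4 sites described above are the only ones with TGIF1 in the widened intervals. These values were read after the data were seen, and no test was made of them. How common such numbers of flanking sites are over the genome was not measured, nor was the share of all sites without TGIF1. In the whole series 29.8% of reproducible MEIS1 EtOH regions and 28.8% of MEIS1 4-OHT regions met a reproducible TGIF1 4-OHT region. Lack of TGIF1 was therefore common, and it was not read as particular to these flanks.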
